A study of Schizosaccharomyces pombe with 4 samples.

Results

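The iron uptake, siderophore and iron regulator genes of fission yeast (Schizosaccharomyces pombe) were followed across 3 knockout (KO) strains and wild type (WT). They were taken by gene name and number 10 of the 5129 genes in the deposited table. They are the siderophore transporter genes str1, str2 and str3, the reductive uptake genes fio1, fip1 and frp1, the siderophore synthesis genes sib1 and sib2, and the regulator genes fep1 and php4. All 10 were found. The groups were the sfp1 KO, the ifh1 KO, the fhl1 KO and WT, each with 1 sample of untreated cells in exponential growth and otherwise given only by strain name. The marker used for deletion, the medium and its iron or copper content, and the number of independent clones were not stated in the labels. Total RNA was sequenced from directional libraries, and the study asked how these 3 regulators of ribosome production shape gene expression.

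Fission yeast takes up iron in 2 ways. In the reductive route, the ferric reductase Frp1 turns iron into its ferrous form at the cell surface, and the multicopper ferroxidase Fio1 oxidizes it again as the permease Fip1 carries it in. In the other route, the cell makes the siderophore ferrichrome, an iron-binding peptide, through the peptide synthetase Sib1 and the ornithine oxygenase Sib2, and takes up iron-loaded siderophores through Str transporters. When iron is plentiful, the GATA-type repressor Fep1 shuts off the uptake genes and php4. When iron is scarce, Php4 joins the CCAAT-binding complex and represses genes that use iron, and fep1 with them.

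Each genotype had 1 FPKM value per gene (fragments per kilobase of gene model scaled to library size), with a lower and an upper bound. There were no replicate values, so no test was made, and the bounds are the authors' own. Differences are log2 ratios of FPKM + 1, KO over WT, read against a 2-fold limit and against whether the bounds of the 2 values overlap. A change in every cell and a change in some of the cells cannot be told apart in such samples. The deleted genes sfp1, ifh1 and fhl1 stood at 0.0818, 0.556 and 0.0509 FPKM in their own KOs and between 45.1 and 270.3 FPKM in the other genotypes. Summed over genes, the midpoints of the bounds corresponded to 4519831 fragments in the sfp1 KO and 4274783 in the ifh1 KO. They came to 4655643 in the fhl1 KO and 5431234 in WT. These sums rest on an assumed common scale and are not to be read as library sizes. All 10 iron genes had a mean of at least 1 FPKM, the minimum that 4761 genes met.

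The sequences before the iron genes are shown first, because 8 of the 10 share a form of the GATA element. In the 1000 bases before the coding start, on either strand, AGATAA or TGATAA was present for all 10 genes, but also for 87.1% of 5112 genes in the annotation. The longer ATCAGATAA or ATCTGATAA, each of which holds the short form, was present for 8 of the 10 and for 3.85% of all genes. This longer form was added after the data were seen, so its shares are a description only. The 8 count fio1 and fip1 separately, although these share a match. CCAAT was present for 6 of the 10 and for 85.0% of all genes. The matches to the longer form follow with 10 bases on each side, 5′ to 3′ on the strand that carries the motif, which is in capitals (RefSeq, build ASM294v3).
str1, II:2704640-2704668, plus strand: gctgccgaccATCAGATAAttcttatttt
str1, II:2705017-2705045, minus strand: atatctgatgATCTGATAAgtatccagat
str2, III:1442033-1442061, minus strand: ttgctatacgATCTGATAAtttgtgttgg
str3, I:90892-90920, minus strand: gacgttggcaATCTGATAAtttaagacaa
fio1 and fip1, I:4234826-4234854, plus strand: tctggattacATCTGATAActtttgtcca
frp1, II:162762-162790, minus strand: actttagctcATCAGATAAaaaatagact
frp1, II:162470-162498, minus strand: aatttggttgATCTGATAAcgcatcaaga
sib1, I:869975-870003, minus strand: atctctatcgATCTGATAAatataaggtg
php4, II:1916884-1916912, plus strand: gtttgttttaATCTGATAAagagatacga

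Both str1 and frp1 held the longer form more than once, while sib2 and fep1 held only the short form in this window. The str1 match 873 bases before its coding start lies across the annotated transcript start. The str1 match at 496 bases lies within the annotated transcript. The genes fio1 and fip1 are divergent neighbours on chromosome I, with 1142 bases between their coding starts, and share 1 match. It lies 803 bases before the coding start of fio1 and 348 before that of fip1, outside both annotated transcripts. The genes sib1 and sib2 are likewise divergent, with 1497 bases between their coding starts, and the match was counted for sib1 alone because it falls beyond the window of sib2. Between the fip1 and fio1 transcripts lie 303 bases, of which the first 300 are printed to show this shared stretch, with the longer form and a further AGATAA in capitals.
fip1 to fio1, I:4234769-4235068, plus strand: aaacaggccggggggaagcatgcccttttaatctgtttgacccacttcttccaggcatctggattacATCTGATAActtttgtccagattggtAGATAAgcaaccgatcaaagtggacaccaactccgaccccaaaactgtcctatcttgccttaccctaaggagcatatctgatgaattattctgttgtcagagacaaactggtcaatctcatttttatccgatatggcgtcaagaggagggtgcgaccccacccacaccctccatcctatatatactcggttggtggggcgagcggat

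**Figure D1:**
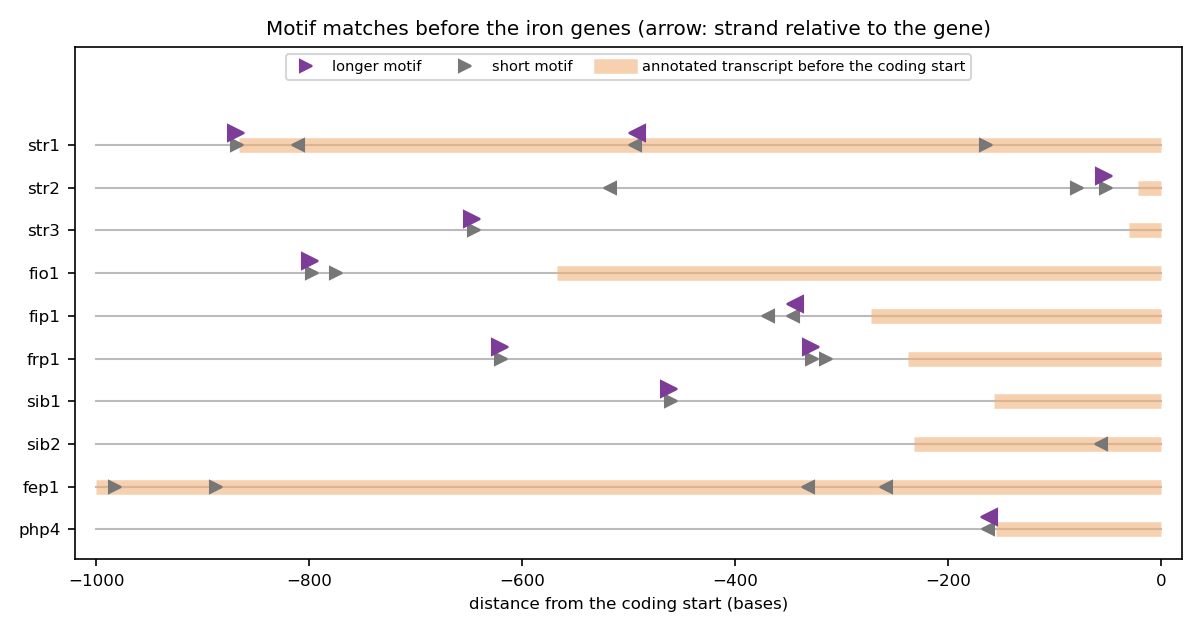
Position of each motif match in the 1000 bases before the coding start of the 10 iron genes, by distance from that start. Purple arrows mark the longer form, present for 8 of the 10, and grey arrows the short form; an arrow pointing right is on the strand of the gene, and orange bars are annotated transcript.

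A match is a description of the letters and not evidence that Fep1 binds there. For the 8 iron genes with the longer form, the median log2 ratio was −0.29 in the sfp1 KO, −0.42 in the ifh1 KO and −0.71 in the fhl1 KO. For the 177 other measured genes with it, the medians were 0.03, −0.02 and 0.01 in the same order, beside −0.01, −0.01 and 0.02 over all 4761 genes. The other carriers of the longer form stood near the median of all genes, and whether the motif bears on these levels was not tested.

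The siderophore transporter str1 had the highest level of the 3 Str genes in each genotype and was lower in each KO than in WT. Its gene (SPBC4F6.09, chromosome II 2705523 to 2707361) encodes the ferrichrome transporter. It was at 152.8 FPKM in the sfp1 KO, 208.3 in the ifh1 KO, 174.0 in the fhl1 KO and 293.8 in WT. The log2 ratios were −0.94, −0.49 and −0.75, none of them at the 2-fold limit. The bounds of each KO overlapped those of WT, in the sfp1 KO by only 4.13 FPKM (103.6 to 200.03 against 195.9 to 387.5).

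The str3 gene (SPAC1F8.03c, chromosome I 88367 to 90259) had the widest spread of the 10, with levels that differed 6.74-fold between its lowest and highest genotype. Str3 is a transporter of the same family that has also been described as a haem transporter. It was at 3.35 FPKM in the sfp1 KO, 22.6 in the ifh1 KO, 6.14 in the fhl1 KO and 16.1 in WT. The sfp1 and fhl1 KOs were thus low, with bounds of 1.63 to 5.02 and 3.39 to 8.78, both below the 10.04 to 22.1 of WT. The ifh1 KO was above WT in value, and its bounds of 14.7 to 30.5 overlapped those of WT. The log2 ratios were −1.98, 0.46 and −1.26.

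Depth limits the low str3 values. The bounds corresponded to 13 to 40 fragments in the sfp1 KO, 117 to 243 in the ifh1 KO, 27 to 70 in the fhl1 KO and 80 to 176 in WT. With a pseudocount of 5 FPKM in place of 1, the ratio in the fhl1 KO was −0.92, inside the 2-fold limit. The str3 ratio in the sfp1 KO was −1.34 with that pseudocount and −2.23 with 0.1 FPKM, past the limit with each. The gene lies 88.4 kb from the end of its chromosome. The next coding gene towards that end is shu1, for a haem acquisition protein, which was listed at or near 0 in all 4 genotypes and did not meet the minimum level.

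The third transporter gene, str2 (SPCC61.01c, chromosome III 1440089 to 1441994), varied least of the 10. It was at 33.3 FPKM in the sfp1 KO, 28.1 in the ifh1 KO, 32.9 in the fhl1 KO and 36.1 in WT, a 1.28-fold span with all bounds overlapping. Summed over the 3 Str genes, levels were 189.5, 259.1 and 213.1 FPKM in the sfp1, ifh1 and fhl1 KOs and 346.0 in WT. The share of str3 in that sum was 1.77% in the sfp1 KO, 8.73% in the ifh1 KO, 2.88% in the fhl1 KO and 4.67% in WT.

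The ferroxidase gene fio1 and the permease gene fip1 were low in the ifh1 and fhl1 KOs, in the same order of genotypes. For fio1 (SPAC1F7.08, chromosome I 4235639 to 4237507), the level was 287.1 FPKM in the sfp1 KO, 166.1 in the ifh1 KO, 193.6 in the fhl1 KO and 431.8 in WT. The bounds in the ifh1 KO (113.1 to 218.2) and the fhl1 KO (129.9 to 254.4) lay below those of WT (286.9 to 573.7), whereas those of the sfp1 KO (190.97 to 381.8) overlapped them. The log2 ratios were −0.59, −1.37 and −1.15 in the sfp1, ifh1 and fhl1 KOs. In WT, fio1 had the highest level of the 10 iron genes and stood above 89.2% of the measured genes.

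The fip1 gene (SPAC1F7.07c, chromosome I 4233303 to 4234496) was at 257.5 FPKM in the sfp1 KO, 157.3 in the ifh1 KO, 169.7 in the fhl1 KO and 283.8 in WT. Its log2 ratios of −0.14, −0.85 and −0.74 were all inside the 2-fold limit, with overlapping bounds, and the ratio in the sfp1 KO was 0.07 when values were scaled to the summed FPKM of genes other than ribosomal protein genes (non-ribosomal scaling). The level of fio1 relative to fip1 came to 1.12, 1.06 and 1.14 in the sfp1, ifh1 and fhl1 KOs, against 1.52 in WT. The fio1 ratio was further from its WT level than that of fip1 in each KO. The php4 gene, on another chromosome, had the same order of genotypes as this pair. Between KOs, the bounds of fio1, fip1 and php4 all overlapped, so this order is one of values only.

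The ferric reductase gene frp1 (SPBC1683.09c, chromosome II 160461 to 162155) was expressed at a far lower level. It was at 13.4 FPKM in the sfp1 KO, 8.42 in the ifh1 KO, 7.49 in the fhl1 KO and 9.45 in WT, with all bounds overlapping. Its log2 ratios were 0.46, −0.15 and −0.30, of which the ratio in the ifh1 KO was 0.12 with non-ribosomal scaling. Between 30 and 133 fragments spanned its bounds over the 4 genotypes.

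The siderophore synthesis genes had their highest levels in the sfp1 KO. The synthetase gene sib1 (SPAC23G3.02c, chromosome I 854523 to 869527) was at 52.6 FPKM in the sfp1 KO, 38.6 in the ifh1 KO, 40.3 in the fhl1 KO and 34.1 in WT. It was the one iron gene with a value above WT in each KO (log2 0.61, 0.17 and 0.23), although each set of bounds overlapped that of WT. The oxygenase gene sib2 (SPAC23G3.03, chromosome I 871025 to 872320) was at 70.1 FPKM in the sfp1 KO, 42.9 in the ifh1 KO, 50.2 in the fhl1 KO and 60.9 in WT (log2 0.20, −0.50 and −0.27, all bounds overlapping). The level of sib2 relative to sib1 came to 1.33, 1.11 and 1.24 in the sfp1, ifh1 and fhl1 KOs and 1.78 in WT.

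Both regulator genes were lower in value in each KO than in WT, without reaching the limit, apart from fep1 in the ifh1 KO with non-ribosomal scaling (log2 0.01). The repressor gene fep1 (SPAC23E2.01, chromosome I 443569 to 445263) was at 98.5 FPKM in the sfp1 KO, 105.1 in the ifh1 KO, 115.2 in the fhl1 KO and 128.7 in WT. Its log2 ratios of −0.38, −0.29 and −0.16 were small, with overlapping bounds. The php4 gene (SPBC16E9.01c, chromosome II 1915850 to 1916737) was at 114.2 FPKM in the sfp1 KO, 93.7 in the ifh1 KO, 97.3 in the fhl1 KO and 155.8 in WT. Its log2 ratios were −0.44, −0.73 and −0.67, with overlapping bounds. At 888 bp it is the shortest of the 10, and its FPKM stood at 1.21, 1.19 and 1.23 times the midpoint of its bounds in the sfp1, ifh1 and fhl1 KOs and 1.16 times in WT.

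**Figure D2:**
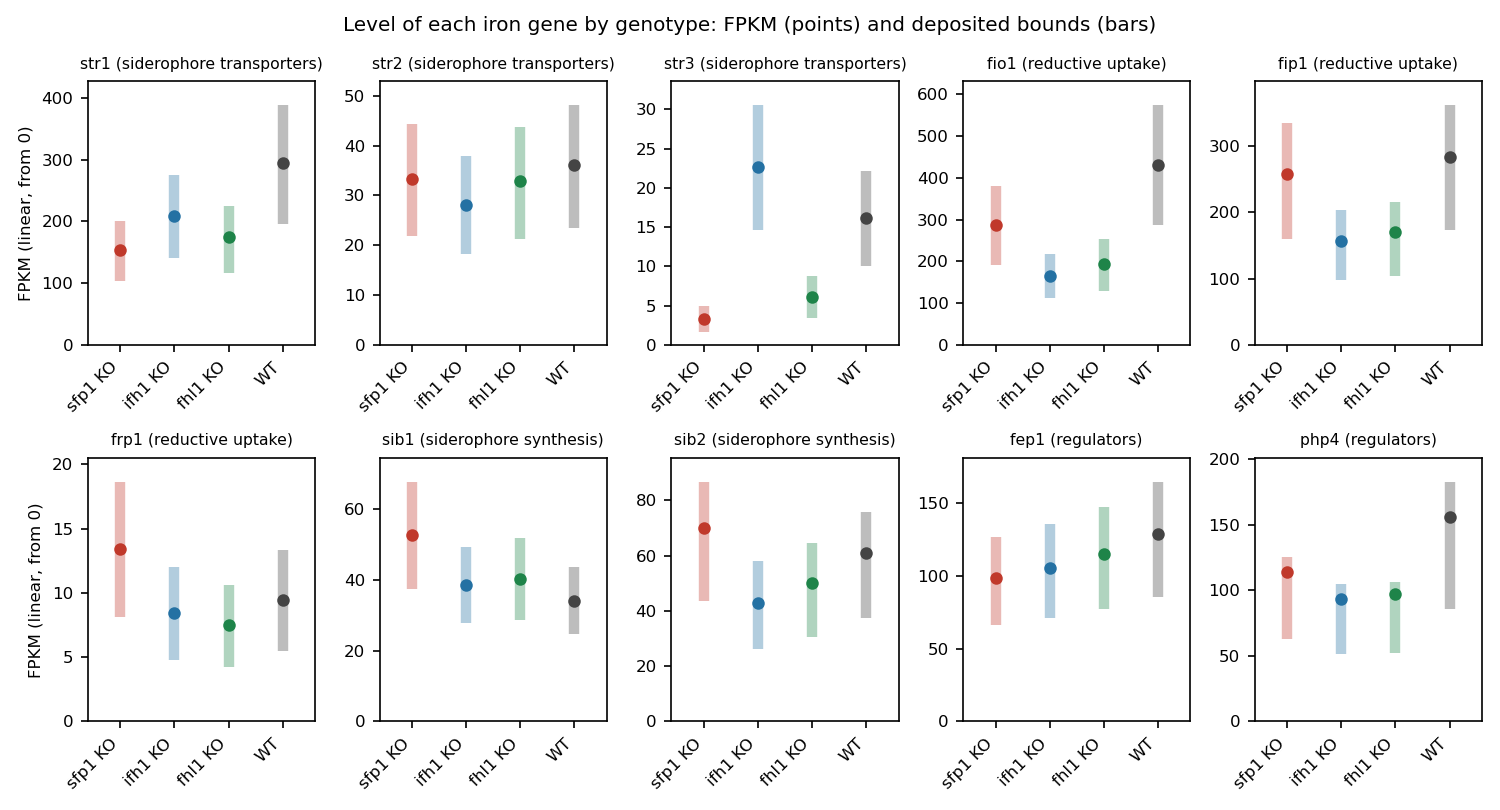
FPKM of each of the 10 iron genes (points) with the deposited lower and upper bounds (bars), on linear axes from 0, in the sfp1, ifh1 and fhl1 KOs and WT (1 sample each). The bounds of str3 in the sfp1 and fhl1 KOs, and of fio1 in the ifh1 and fhl1 KOs, lie below those of WT.

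Within a genotype the order of levels was broadly shared. In WT it ran fio1, str1, fip1, php4, fep1, sib2, str2, sib1, str3, frp1, and among neighbours in that order only fep1 and sib2, and sib1 and str3, had bounds apart. In the ifh1 KO str1 stood first and fio1 second, with overlapping bounds. In the sfp1 KO str3 stood last, with its bounds below those of frp1, and in the ifh1 KO str3 stood above frp1 with bounds apart.

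The iron genes past the 2-fold limit were counted beside all genes. In the sfp1 KO 1 of the 10, str3, was at least 2-fold lower, where 2.50% of the 4761 genes were. In the ifh1 KO 1 of the 10, fio1, was at least 2-fold lower, where 2.84% of genes were. In the fhl1 KO 2 of the 10, str3 and fio1, were at least 2-fold lower, where 0.903% of genes were. In each of these 4 cases the bounds were also apart, which, together with the lower 2-fold limit, held for 1.37%, 1.26% and 0.315% of genes in the sfp1, ifh1 and fhl1 KOs. No iron gene was at least 2-fold higher in any KO, where 3.11%, 1.60% and 2.58% of genes were. These percentages include the deleted gene itself. The 10 genes were chosen with earlier results of these data known, so the counts beside them are a description only.

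Iron genes below WT by any amount were also counted beside all genes, as a description only. In the sfp1 KO 7 of the 10 were below WT (51.4% of all genes), in the ifh1 KO 8 (52.1%) and in the fhl1 KO 9 (47.0%). These counts were 5, 6 and 8 with non-ribosomal scaling, while 31.0%, 20.6% and 27.3% of all genes were then below WT. The medians of the 10 were −0.26, −0.42 and −0.49. The 3 comparisons share the WT sample, so that a high WT value of a gene lowers its ratio in each of them.

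**Figure D3:**
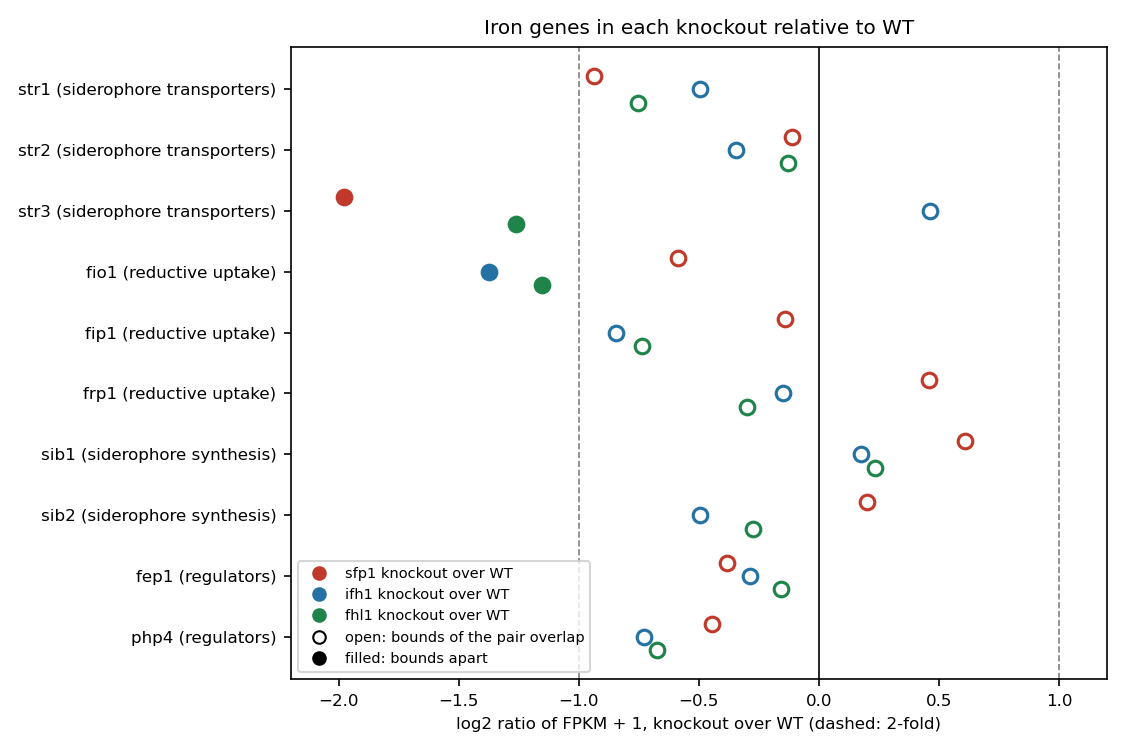
Log2 ratio of FPKM + 1 of each iron gene in the sfp1, ifh1 and fhl1 KOs over WT, with dashed lines at 2-fold; filled points have bounds apart. The filled points are str3 in the sfp1 and fhl1 KOs (−1.98 and −1.26) and fio1 in the ifh1 and fhl1 KOs (−1.37 and −1.15); with non-ribosomal scaling, str2 and fip1 in the sfp1 KO, frp1 and fep1 in the ifh1 KO and str2 in the fhl1 KO come to lie just above 0.

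The KOs were also compared with each other, which leaves WT out. The str3 level in the sfp1 KO was below that in the ifh1 KO, at a log2 ratio of −2.44 with bounds apart. It was higher in the ifh1 than in the fhl1 KO by 1.72 with bounds apart. These were the 2 differences past 2-fold among the 30 made between KO strains for the 10 genes. Of all genes, 4.54% differed at least 2-fold between the sfp1 and ifh1 KO, 3.11% between the sfp1 and fhl1 KO and 1.81% between the ifh1 and fhl1 KO. The 3 reductive uptake genes were all higher in the sfp1 than in the ifh1 KO, by 0.61 to 0.79, and than in the fhl1 KO, by 0.57 to 0.76, with overlapping bounds. Of the 10 iron genes, 7 were above their level in the ifh1 KO and 7 above that in the fhl1 KO, where 53.4% and 45.3% of all genes were. Both sib genes were also higher in value in the sfp1 than in the ifh1 KO, by 0.44 and 0.70. Between the ifh1 and fhl1 KOs, the iron genes other than str3 differed by at most 0.26, with 3 of the 10 higher in the ifh1 KO (40.3% of all genes), a count that turned round with non-ribosomal scaling, where 3 of the 10 were lower in the ifh1 KO (28.2% of all genes).

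The pattern of str3 over the 3 KOs was compared with that of every measured gene, by the Euclidean distance over the 3 log2 ratios. The nearest were SPAC8E11.12, moa1, which encodes a protein of the meiotic centromere, and dbp2, which encodes an RNA helicase, at distances of 0.87, 0.89 and 0.98. Of these, dbp2 was well expressed, at 199.1, 582.2 and 450.0 FPKM in the sfp1, ifh1 and fhl1 KOs and 672.4 in WT. Its log2 ratios of −1.75, −0.21 and −0.58 matched those of str3 only loosely, with the opposite sign in the ifh1 KO. The other two stood at or below 6.65 FPKM in every genotype.

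Other genes of iron metabolism were examined as 6 lists of 54 genes, of which 51 met the minimum level. The gene ccc1 was not matched, shu1 was below the minimum level, and nfu1 was listed at 0 in all 4 genotypes. The name sdh4 was matched as an older symbol of a gene now named tim18, which was kept among the iron-using enzymes. Of the 51, none was at least 2-fold lower in any KO. Over all genes, 2.50%, 2.84% and 0.903% were, in the sfp1, ifh1 and fhl1 KOs. In the same order, 1, 0 and 2 of the 51 were at least 2-fold higher (3.11%, 1.60% and 2.58% of all genes).

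Among other acquisition and storage genes, abc3, which encodes a vacuolar transporter, was at 35.9 FPKM in the sfp1 KO and 19.7 in WT. Its log2 ratio of 0.83 was short of 2-fold, but its bounds were apart. The lowest ratio of this list was that of sib3, a further enzyme gene of ferrichrome synthesis, at −0.41 in the ifh1 KO. Abc3 and the reductase gene frp2 hold the longer motif before their coding starts, as does shu1.

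Copper bears on the reductive route because Fio1 is a copper enzyme. The 5 genes of copper supply had medians of 0.16, 0.55 and 0.42 in the sfp1, ifh1 and fhl1 KOs. The vacuolar copper exporter gene ctr6 was at 78.4 FPKM in the sfp1 KO and 31.9 in WT (log2 1.27), and the copper transporter gene ctr5 was at 65.3 FPKM in the fhl1 KO and 30.7 in WT (1.06). Both are short, at 447 and 522 bp, both had overlapping bounds, and ctr5 was inside the limit with other settings. The deposited levels of ctr6 in all 4 genotypes, and of ctr5 in the ifh1 and fhl1 KOs, lay above their own upper bounds. These bounds thus do not give the range of those levels. The partner of Ctr5, ctr4, had the lowest ratio of the list, −0.58 in the sfp1 KO.

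Partners of the regulators stayed within narrow limits, from php3, a subunit of the CCAAT-binding complex, at −0.39 in the ifh1 KO to the export receptor gene crm1 at 0.19 in the fhl1 KO. Iron-sulfur assembly genes had medians of 0.26, −0.04 and −0.07 in the sfp1, ifh1 and fhl1 KOs, with the scaffold gene isu1 lowest at −0.50 in the ifh1 KO and the co-chaperone gene jac1 highest at 0.59 in the sfp1 KO. The levels of php3 and isu1 lay above their own upper bounds in all 4 genotypes. Iron-using enzymes had medians of −0.04, −0.09 and −0.01. Their extremes were sir1, for sulfite reductase, at −0.75 in the ifh1 KO, and the haem enzyme catalase, ctt1, at 1.17 in the fhl1 KO, where its bounds were apart. In the sfp1 and ifh1 KOs ctt1 stood at 0.96 and 0.97, short of 2-fold and with overlapping bounds. Haem synthesis genes had medians of −0.21, −0.26 and −0.13, from hem3 at −0.64 in the sfp1 KO to ups1 at 0.19 in the ifh1 KO.

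**Figure D4:**
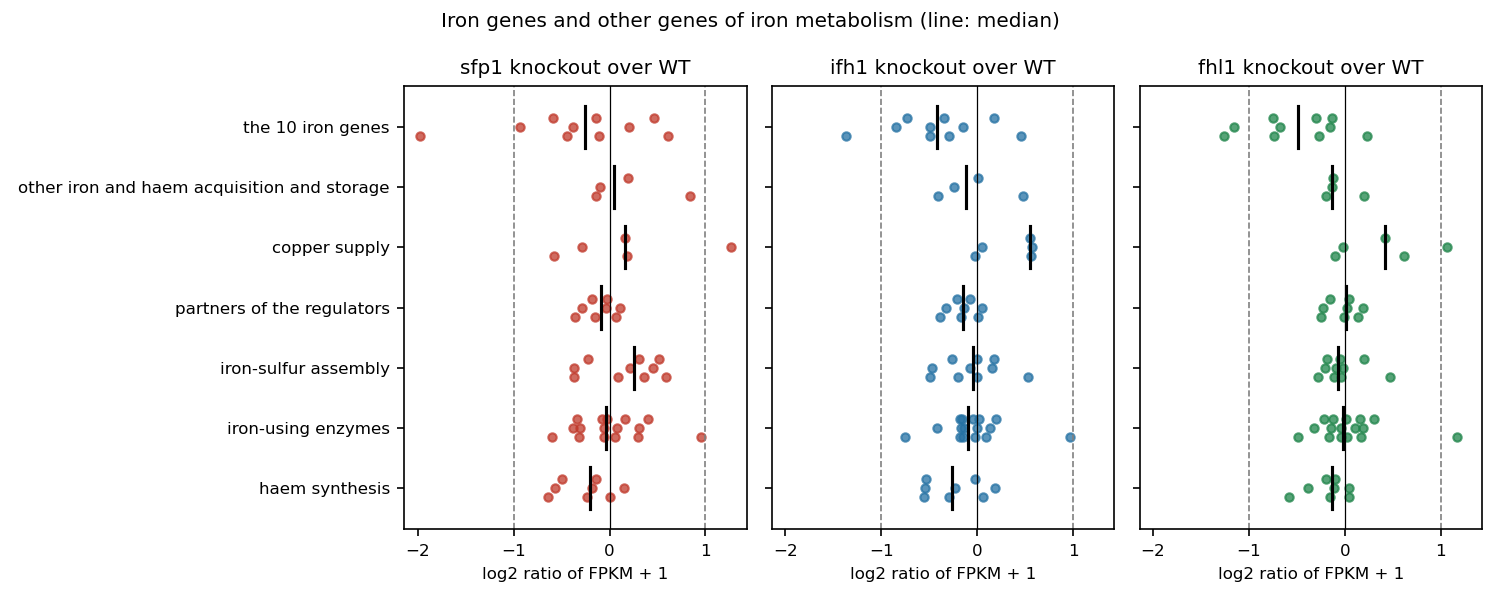
Log2 ratio of FPKM + 1 in each KO over WT for the 10 iron genes and for 6 lists of other iron metabolism genes, 1 point per gene, with the median as a black line and dashed lines at 2-fold. The medians of the 10 iron genes are −0.26, −0.42 and −0.49. No gene of the other lists lies at or below the lower 2-fold line, where 2.50%, 2.84% and 0.903% of all genes do.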

How the data were processed

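The submitters' processing notes name TopHat2 2.0.9 and Cufflinks 2.1.1, with no role for either; genome build, annotation and strand use in counting are not stated in them. The authors deposited FPKM with 2 bounds for each gene and genotype; the table's name mentions 2 replicates, without saying how these were joined. The crf1d columns hold the ifh1 KO, since RefSeq gives crf1 as a synonym of ifh1, which is near 0 there. RefSeq ASM294v3 held 5111 of the 5129 genes, and all 10 iron genes with unchanged coding boundaries; coordinates are 1-based and lengths are coding lengths.

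With Python 3.11.15, numpy 2.4.6 and pandas 2.3.3, log2(FPKM + 1) ratios were computed, unscaled, over genes averaging 1 FPKM or more; the pseudocount understates changes of low genes. With 1 sample per genotype, a 2-fold limit took the place of a test. Fragments were read from the bounds, since 99.46% of 24533 bounds (those under 500 fragments) came within 0.05 of a whole number of steps of 1 common size; true depth is unknown. Motifs were searched with biopython 1.88 in the 1000 bases before each coding start. The ratio code was tested on simulated data. The members and lists were chosen with earlier results of these data known, and the longer motif was added after the data were seen. Named genes were the members, list genes past 2-fold or at the extremes of their list, and the 3 nearest patterns to the member with the widest ratios.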

Additional observations from a re-analysis of the deposited data

How the results depend on the processing

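Alternatives were pseudocounts of 0.1 and 5 FPKM, no minimum level, 3 scalings, midpoints of the bounds and the added demand that bounds be apart. The numbers of iron genes at least 2-fold lower or higher kept their values, except that 1 instead of 2 was lower in the fhl1 KO with a pseudocount of 5. The 2 differences past 2-fold between KOs held in number throughout. With non-ribosomal scaling (137 ribosomal protein genes left out of the sum), the median of the iron genes came to −0.055 in the sfp1 KO, −0.12 in the ifh1 KO and −0.36 in the fhl1 KO. The median of all genes was then 0.19, 0.28 and 0.15, and relative to it the iron genes stood at −0.25, −0.41 and −0.51, against −0.25, −0.41 and −0.51 unscaled. With quantile normalization the median in the fhl1 KO was −0.63. Of all genes past 2-fold, 78.9%, 74.2% and 82.7% were higher with non-ribosomal scaling, against 55.4%, 36.0% and 74.1%, and 51.5% in the ifh1 KO with quantile normalization. Genes at least 2-fold lower in the sfp1, ifh1 and fhl1 KOs were 57, 55 and 31 with non-ribosomal scaling, against 119, 135 and 43, and 64 in the ifh1 KO with quantile normalization. The ctr5 ratio in the fhl1 KO was 0.98 with a pseudocount of 5, 0.94 with quantile normalization and 0.95 with midpoints. With non-ribosomal scaling, abc3 (1.04) in the sfp1 KO and ctt1 in the sfp1 (1.16) and ifh1 (1.27) KOs passed 2-fold. No paired analysis was possible because each genotype had 1 sample. Whether the bounds cover any spread between cultures is unknown, since how the replicates were joined is not stated. Reads shared between overlapping genes were not separable here.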
